A study of Mus musculus with 6 samples.

Results

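The 36 genes described here encode the enzymes that break down glucose to pyruvate, those that build and degrade glycogen, and their direct regulators. They were chosen by function from a list of symbols by a rule that uses no measured value, although earlier results of these data were known when the list was drawn up, and all 36 were found among the 14824 genes listed for the series. The glycolytic group has 20 members (Hk1, Hk2, Gpi1, Pfkm, Pfkl, Pfkp, Aldoa, Tpi1, Gapdh, Pgk1, Pgam1, Eno1, Eno2, Eno3, Pkm, Bpgm, Adpgk, Pfkfb2, Pfkfb3 and Pfkfb4). The glycogen group has 16 members (Pygb, Pygm, Pygl, Gys1, Gbe1, Pgm2, Phka1, Phka2, Phkb, Phkg1, Phkg2, Ugp2, Gyg, Ppp1r3c, Ppp1r3d and Ppp1r3e). Bulk RNA-seq was carried out on primary somatosensory (S1) cortex of wild-type mice, labelled C57B6, at postnatal day 21. The NS group (n = 3 libraries) had no stimulation, and the WS group (n = 3 libraries) received daily whisker stimulation and was collected 90 minutes after the last session. In the study's stimulation model the whiskers of one side are moved, and the cortex on the unstimulated side serves as NS. RNA samples were accepted by the submitters at an RNA integrity number above 2, a scale on which higher values mean more intact RNA. The labels name neurons, astrocytes, endothelial cells, oligodendrocytes, pericytes and microglia as cells of the tissue.

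Glycolysis turns glucose into pyruvate and yields ATP, and pyruvate can be reduced to lactate. Hexokinase, phosphofructokinase and pyruvate kinase catalyse its irreversible steps. In the brain, glycogen is stored mainly in astrocytes, where glycogen phosphorylase releases glucose units that can also feed lactate production. The study follows lactate and its monocarboxylate transporters (MCTs), above all neuronal MCT2, and HIF1α, the hypoxia-inducible transcription factor it follows, is known to act on many glycolytic genes. The comparison of WS with NS therefore asks whether transcripts of the enzymes upstream of lactate changed with whisker stimulation.

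No change in any of the 36 transcripts was detected between WS and NS. Every member was abundant enough to be tested, and 0 of 36 passed an adjusted p of 0.05 with a log2 fold change beyond 1 in either direction (quasi-likelihood test of edgeR, Benjamini-Hochberg over 13747 genes). Of all tested genes, 0.0291% were called higher and 0% lower by this rule. At an unadjusted p under 0.05 there were again 0 members, against 0.866% of tested genes higher in WS and 0.327% lower. In an edgeR fit blocked on the replicate number there was 1 (Pygm, higher in WS), against 1.38% of tested genes higher in WS. The adjusted p of each member was 0.9998 in the unblocked edgeR test. Of the 36 log2 fold changes, 29 were below 0.1 in size, and their median size was 0.05, against 0.07 over all tested genes. The 95% confidence intervals of all 36 included 0. All 36 intervals lay within a log2 fold change of 1 in either direction and 33 within 0.5. The intervals that reached beyond 0.5 were those of Hk2, Eno3 and Pygl, all rare transcripts with 1.99 to 5.43 CPM over the 6 libraries. In simulated data, 43.4% of log2 fold changes of 0.5 and 95.9% of those of 1.5 were recovered by the adjusted p. There 4.34% of unchanged genes had an unadjusted p under 0.05, against the 0.866% higher and 0.327% lower among tested genes here. The share of such changes that would be found in the real libraries was not tested.

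**Figure D1:**
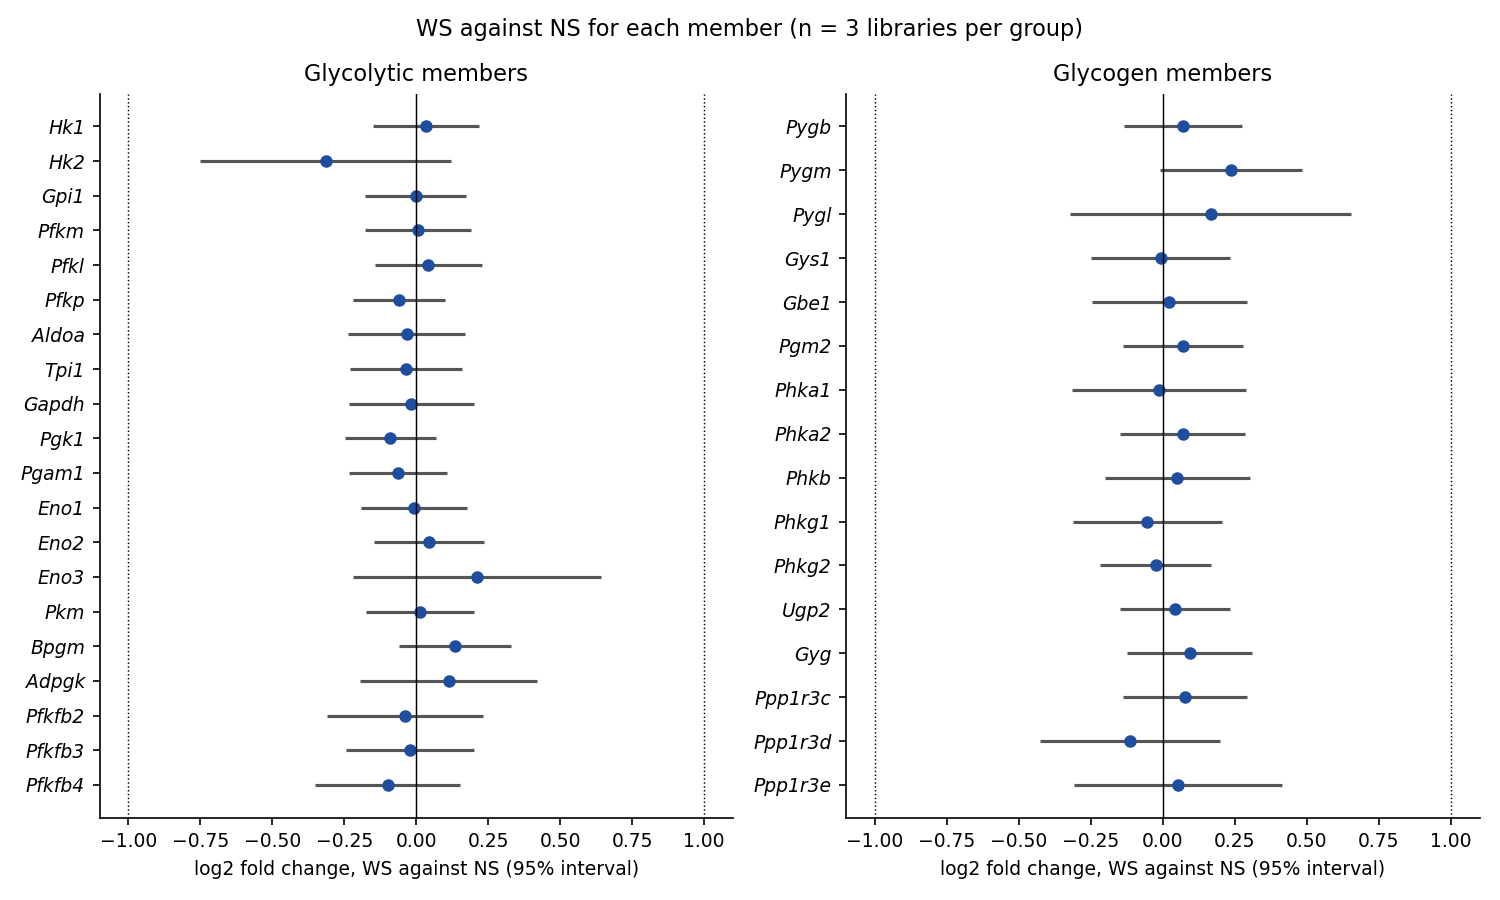
Log2 fold change of each member between WS and NS (x axis) with its 95% interval (line) from edgeR's fit on 3 libraries per group. Dotted lines mark a log2 fold change of 1 in either direction. All 36 intervals cross 0, and those of Hk2, Eno3 and Pygl are the ones that reach beyond 0.5.

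Levels are given as CPM, the counts scaled to the TMM-normalized library size. Total counts over the listed genes lay between 15660395 and 17276168 per library, and the members together took 1.20% to 1.37% of them. WS replicate 1 and WS replicate 3 were the furthest apart of all 15 library pairs, with a chi-square of 20.3 per degree of freedom against 4.29 for the closest pair. The neuronal markers summed to 9634 to 9836 CPM in NS and 9395 to 9693 in WS, and all 10 had reads, as did all 10 astrocyte and all 15 endothelial markers. In whole tissue, fewer cells of a type and less RNA per cell cannot be told apart.

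Because the study follows HIF1α, the windows upstream of the members were searched for the core of its binding motif, ACGTG or GCGTG, on both strands. RefSeq promoter windows (250 bases before to 50 after a gene's start, GRCm38.p6) matched, by symbol, 20 of 20 glycolytic and 15 of 16 glycogen members, Pgm2 among them. The motif was in 24 of 32 glycolytic windows (75.0%), in 11 of 16 glycogen windows (68.8%), and in 43.8% of all 32851 windows. Several windows can belong to 1 gene. By gene, it was in 16 of 20 glycolytic, 11 of 15 glycogen and 12628 of all 27025 genes with a window. Both cores hold the letters CG, and the windows of all genes were not matched for base content or expression. Whether the members hold the motif more often than such matched genes was not tested. A match describes letters and not a bound site. The upstream sequence is shown for 2 members picked by their values, neither of which was called. In Pgk1, which is also a textbook HIF1 target, all WS libraries lay below the NS libraries, as in 3.16% of tested genes. Pygm had the lowest p of the members. The motif and its reverse complement are in capitals.
Pgk1 (chrX:106186850-106187099, plus strand): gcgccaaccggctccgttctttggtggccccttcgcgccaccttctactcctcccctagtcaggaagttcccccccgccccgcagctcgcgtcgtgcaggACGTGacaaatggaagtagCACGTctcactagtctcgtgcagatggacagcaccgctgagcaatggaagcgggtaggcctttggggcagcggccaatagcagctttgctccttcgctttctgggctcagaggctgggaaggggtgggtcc
Pygm (chr19:6384158-6384398, plus strand): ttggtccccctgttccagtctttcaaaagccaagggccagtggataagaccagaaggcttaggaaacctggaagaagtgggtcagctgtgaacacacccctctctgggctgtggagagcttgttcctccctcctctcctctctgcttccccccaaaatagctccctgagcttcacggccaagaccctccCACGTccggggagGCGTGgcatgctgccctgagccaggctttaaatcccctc
Each of these sequences holds 2 matches. No match was found in the windows of Gpi1, Tpi1, Eno2 and Bpgm among the glycolytic members, nor in those of Gys1, Gbe1, Phkg1 and Phkg2 among the glycogen members.

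Hexokinases phosphorylate glucose as it enters the pathway, and the more abundant member was Hk1, the form typical of brain (chromosome 10 of GRCm38, 62268855 to 62379908, minus strand). It was at 419, 421 and 401 CPM in NS replicates 1, 2 and 3, and at 467, 419 and 384 CPM in the WS replicates. WS replicate 1 was above and WS replicate 3 below all NS libraries, so the groups overlapped, and the log2 fold change was 0.03 (SE 0.08). Hk2, the insulin-responsive hexokinase and a HIF1 target (chromosome 6, 82725025 to 82774454, minus strand), was far lower, at 3.91, 3.37 and 4.16 CPM in NS and 3.50, 2.54 and 3.16 CPM in WS. WS replicates 2 and 3 were below all NS libraries and WS replicate 1 was within their range. Its log2 fold change of -0.31 (SE 0.20) was the largest in size among the members and had an interval from -0.75 to 0.12 (unadjusted p = 0.142, and 0.127 with the replicate block, edgeR). It was lower in WS in all 3 same-numbered pairs of libraries, as was Pgk1, which makes 2 of 36 members (5.56%) against 8.57% of tested genes. In the other direction, 3 of 36 members (8.33%; Bpgm, Pygl and Ppp1r3c) were higher in WS in all 3 pairs, against 9.82% of tested genes. Hkdc1, a further hexokinase-domain gene outside the members, averaged 17.8 CPM in NS and 16.3 CPM in WS, with a log2 fold change of -0.13 (SE 0.12). Adpgk, an ADP-dependent glucokinase, and Gpi1, which converts glucose 6-phosphate to fructose 6-phosphate, had log2 fold changes of 0.11 (SE 0.14) and -0.002 (SE 0.08).

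Phosphofructokinase catalyses the committed step and is built from muscle (Pfkm), liver (Pfkl) and platelet (Pfkp) type subunits. Pfkm was at 352, 347 and 330.4 CPM in NS and 385, 324 and 327 CPM in WS. For Pfkl the NS libraries gave 143, 152 and 157 CPM and the WS libraries 169, 158 and 139 CPM. Pfkp had 244, 249 and 222 CPM in NS, and 229, 231 and 226 CPM in WS. The groups overlapped for all 3 subunits, with log2 fold changes of 0.01 (SE 0.08), 0.04 (SE 0.09) and -0.06 (SE 0.07). In Pfkm and Pfkl, WS replicate 1 was above and WS replicate 3 below every NS library, while the WS values of Pfkp lay within the NS range. Pfkfb enzymes set fructose 2,6-bisphosphate, an activator of phosphofructokinase. Pfkfb3, the form linked to astrocytic glycolysis, was at 28.2, 30.4 and 30.6 CPM in NS and 26.1, 29.9 and 31.9 CPM in WS. Its WS libraries spanned the NS range on both sides, and the log2 fold change was -0.02 (SE 0.10). For Pfkfb2 and Pfkfb4 the log2 fold changes were -0.04 (SE 0.12) and -0.10 (SE 0.12).

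The enzymes that split and oxidize the sugar phosphates included the most abundant members. Gapdh, which oxidizes glyceraldehyde 3-phosphate, averaged 3606 ± 209.9 CPM (SD, n = 3) without and 3564 ± 387 CPM (SD, n = 3) with stimulation. Gapdh also served the study as the reference transcript for its RT-qPCR, and its log2 fold change here was -0.02, with an interval from -0.23 to 0.20. Aldoa, the aldolase of muscle and neurons, averaged 2095 ± 72.4 CPM in NS and 2047 ± 217 CPM in WS (SD over 3 libraries each). The values of Tpi1, the triose phosphate isomerase, were 633 ± 54.8 in NS and 617 ± 45.7 CPM in WS. For both the difference was smaller than the spread between replicates.

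Pgk1, phosphoglycerate kinase (chromosome X, 106187100 to 106203699, plus strand), was the single member whose WS libraries all lay below all NS libraries. It was at 407, 417 and 410.4 CPM in NS replicates 1, 2 and 3 and at 391, 402 and 367 CPM in WS. The gap between the groups was small, and the log2 fold change was -0.09 (SE 0.07, unadjusted p = 0.235, edgeR). Among all tested genes 3.16% had every WS library below every NS library, against 1 of 36 members (2.78%). In the other direction the share was 3.11% of tested genes and again 1 of 36 members (2.78%), which was Bpgm, an enzyme best known for making 2,3-bisphosphoglycerate in red cells (chromosome 6, 34476207 to 34505613, plus strand). Bpgm was at 51.0, 45.0 and 50.5 CPM in NS and 51.1, 56.8 and 52.9 CPM in WS. WS replicate 1 and NS replicate 1 were nearly equal, and the log2 fold change was 0.13 (SE 0.09, unadjusted p = 0.157, edgeR). Blood markers, which include globin genes, summed to 422 to 766 CPM in NS and 501 to 634 CPM in WS with all 5 detected, and their part in the Bpgm value was not tested.

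Of the last steps, Pgam1, the phosphoglycerate mutase, had a log2 fold change of -0.06 (SE 0.08). The enolases Eno1, the form found in most tissues, and Eno2, the neuronal form, were at 919 ± 17.5 and 1075 ± 4.22 CPM (SD, n = 3) in NS, and at 913 ± 81.7 and 1109 ± 116 CPM (SD, n = 3) in WS. Eno3, the muscle enolase, was rare, with 3.86 ± 0.0665 CPM in NS and 4.47 ± 0.984 CPM in WS (SD over 3 libraries each), and its log2 fold change of 0.21 (SE 0.20) was about the size of its error. Pkm, pyruvate kinase, makes the pyruvate from which lactate is formed (chromosome 9, 59656368 to 59679375, plus strand). Its libraries gave 1017, 1123 and 1107 CPM in NS and 1170.0, 1113 and 996 CPM in WS. WS replicate 1 was above and WS replicate 3 below all NS values, and the log2 fold change was 0.01 (SE 0.09).

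**Figure D2:**
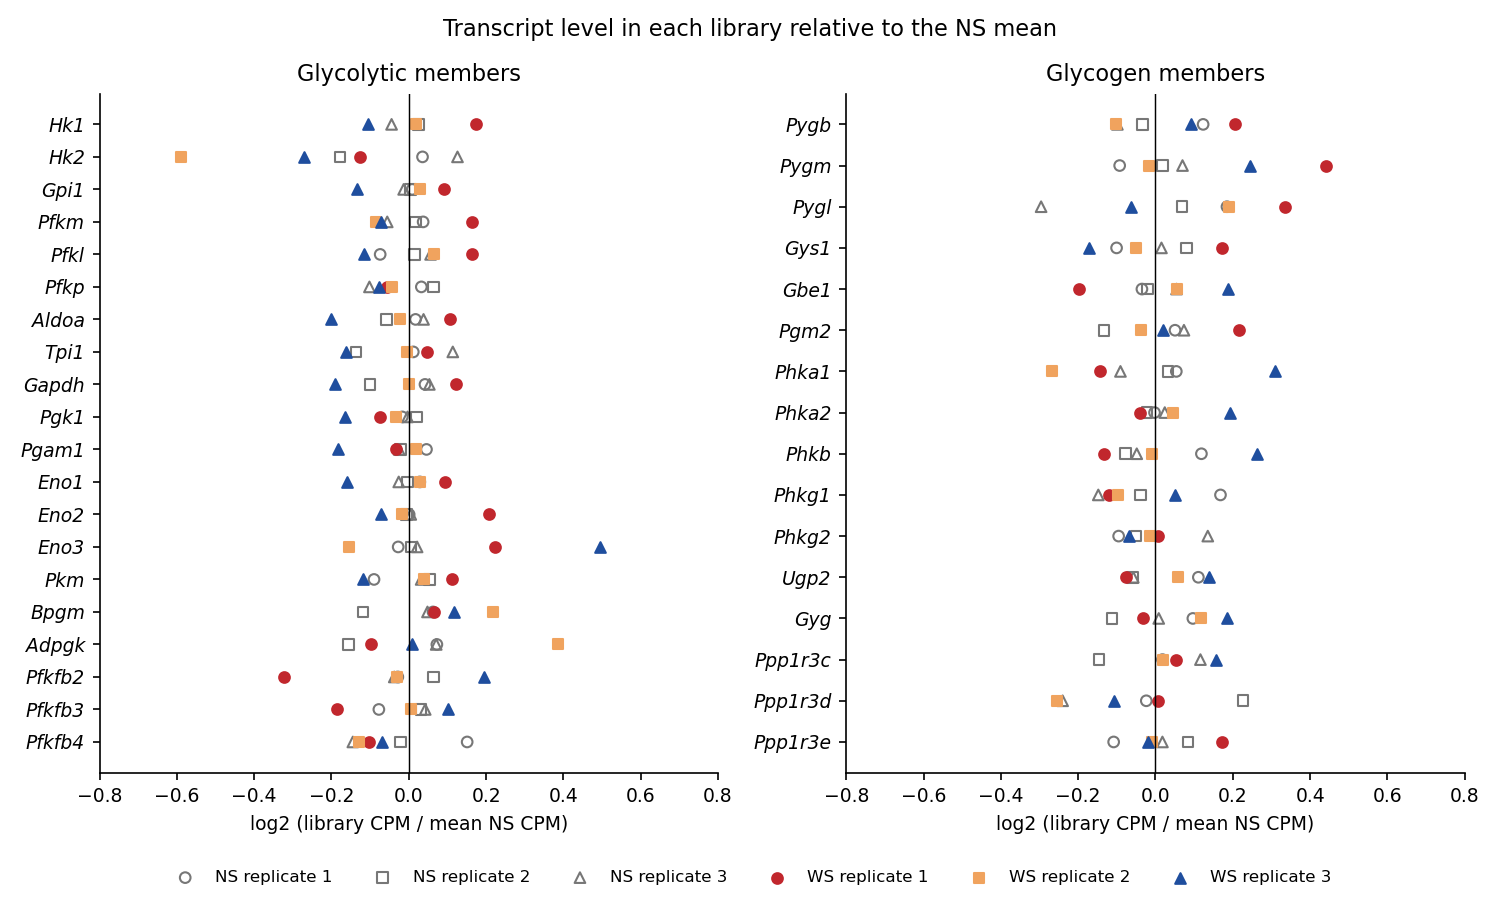
Level of each member in each library as the log2 of its CPM over the mean NS CPM (x axis), with open grey symbols for NS and filled symbols for WS. For Hk1, Gpi1, Pfkm, Pfkl, Aldoa, Gapdh, Eno1, Eno2 and Pkm, WS replicate 1 lies to the right and WS replicate 3 to the left of all NS libraries.

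Glycogen phosphorylase releases glucose 1-phosphate from glycogen and has brain (Pygb), muscle (Pygm) and liver (Pygl) forms. Pygm (chromosome 19, 6384399 to 6398459, plus strand) had the lowest p of the members. It was at 47.3, 51.1 and 52.9 CPM in NS replicates 1, 2 and 3, and at 68.5, 49.9 and 59.7 CPM in WS. WS replicates 1 and 3 were above all NS libraries, and WS replicate 2 was within the NS range. The log2 fold change was 0.24 (SE 0.11), with an interval from -0.01 to 0.48 and an unadjusted p of 0.0592 in edgeR's test. Blocking on the replicate number gave a log2 fold change of 0.23 and an unadjusted p of 0.0453 in edgeR's test (adjusted p = 0.9999 with Benjamini-Hochberg). It was then the single member of 36 (2.78%) at an unadjusted p under 0.05 in the direction of higher in WS, a level reached by 1.38% of tested genes in that blocked fit. Leaving out each library in turn gave log2 fold changes from 0.12 to 0.34. Skeletal muscle markers, of which 3 of 6 had a row (Ckm, Tnnt3 and Tnni2 had none), summed to 16.9 to 19.0 CPM in NS and 17.7 to 22.8 CPM in WS. Median deviations from the NS mean in log2 CPM were taken for each marker set. For the 2 muscle markers tested they were 0.54, -0.0045 and 0.18 in WS replicates 1, 2 and 3, where Pygm was above, within and above the NS range. In NS replicates 1, 2 and 3 they were 0.50, -0.10 and -0.40, and Pygm was lowest in NS replicate 1. For the astrocyte markers they were 0.15, -0.01 and 0.25 in the WS replicates. In the WS replicates they were 0.10, 0.0019 and 0.17 for the endothelial and 0.15, 0.05 and 0.11 for the microglial markers. The blood markers were at 0.16, 0.08 and 0.17. Other sets had another order over these libraries. The oligodendrocyte markers were at -0.04, 0.34 and 0.31 and the neuronal markers at -0.05, -0.0063 and -0.01. The striatal markers were at -0.36, 0.72 and -0.42 and the choroid plexus markers at -2.03, 0.89 and -0.07. The part of any of these sets in the Pygm value was not tested.

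Pygb (chromosome 2, 150786735 to 150831758, plus strand) was more abundant, at 187, 168 and 160.4 CPM in NS and 198, 160.0 and 183 CPM in WS. Its groups overlapped, with WS replicate 1 the highest of the 6 libraries and WS replicate 2 the lowest, and the log2 fold change was 0.07 (SE 0.09). Pygl was near the lower end of the members, at 2.44 ± 0.406 CPM in NS and 2.73 ± 0.374 CPM in WS (SD over 3 libraries each). Phosphorylase kinase, which switches phosphorylase on in response to calcium and cyclic AMP, has alpha (Phka1 and Phka2), beta (Phkb) and catalytic gamma (Phkg1 and Phkg2) subunits among the members. Their log2 fold changes lay between -0.05 (Phkg1, SE 0.12) and 0.07 (Phka2, SE 0.10).

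On the side of synthesis, Gys1, the glycogen synthase of tissues other than liver, was at 22.7, 25.7 and 24.6 CPM in NS and at 27.4, 23.5 and 21.6 CPM in WS. Its WS libraries lay above, within and below the NS range, and the log2 fold change was -0.01 (SE 0.11). Ppp1r3c, which targets protein phosphatase 1 to glycogen and so favours its storage, was at 35.7, 31.9 and 38.3 CPM in NS and 36.6, 35.8 and 39.3 CPM in WS. WS replicate 3 was the highest library, the groups overlapped, and the log2 fold change was 0.08 (SE 0.10). The related targeting subunits Ppp1r3d and Ppp1r3e had log2 fold changes of -0.11 (SE 0.14) and 0.05 (SE 0.16). Ugp2, which makes UDP-glucose, the branching enzyme Gbe1, and Gyg, the glycogenin that primes new glycogen, had log2 fold changes of 0.04 (SE 0.09), 0.02 (SE 0.12) and 0.09 (SE 0.10). The row named Pgm2 had a log2 fold change of 0.07 (SE 0.10). This symbol has been used for both of the closely related phosphoglucomutase genes, and which of them the row holds is not given.

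Compared per kilobase of exon sequence, Gapdh and Aldoa had the highest levels. Gapdh was at 873 ± 50.8 CPM per kilobase in NS and Aldoa at 719.6 ± 24.9. Pgam1 followed at 298 ± 8.34. Tpi1, Eno2 and Pkm, at 230.0 ± 19.9, 228 ± 0.897 and 216 ± 11.4 CPM per kilobase, were close neighbours. Tpi1 did not differ from the other 2 beyond its SD, while Eno2 lay above Pkm by more than either SD. The hexokinase Hk1 was at 48.5 ± 1.28 CPM per kilobase, and the highest glycogen member, Pygb, at 35.7 ± 2.86 CPM per kilobase, both SD with n = 3. The order depended on the length used. With the longest transcript in place of all exons, Aldoa was at 1352 and Gapdh at 1096 CPM per kilobase in NS, followed by Eno1 at 453, Pkm at 445, Tpi1 at 394, Eno2 at 385 and Pgam1 at 333. By all exons, glycogen synthase, Gys1, was at 5.08 ± 0.319 CPM per kilobase, and Pygl was the lowest of the 36 members at 0.354 ± 0.0589 CPM per kilobase. By the longest transcript Hk2, at 0.692 CPM per kilobase, was below Pygl, at 0.775.

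Which isozyme a tissue uses can change without a change in the summed level, so the share of each isozyme in its family's CPM per kilobase was compared. All 18 shares overlapped between NS and WS when the libraries were taken as groups. Hk1 made up 98.7% ± 0.166 of the hexokinase pair in NS and 99.0% ± 0.154 in WS, where ± is the SD and n = 3 in each group. Pfkm held 71.8% ± 0.788 of phosphofructokinase in NS and 71.9% ± 1.40 in WS. Among the phosphorylases Pygb held 69.0% ± 2.79 in NS and 66.6% ± 1.11 in WS, and Pygm 30.4% ± 2.87 and 32.6% ± 1.16. The shares of Eno2 in the enolases were 56.9% ± 0.490 and 57.7% ± 1.38, those of Phka1 in the alpha subunits 57.4% ± 1.67 and 55.7% ± 3.69, and those of Phkg2 in the gamma subunits 86.6% ± 2.17 and 86.9% ± 1.05. Pfkfb2 and Pfkfb3 held like shares, 38.6% ± 0.839 and 36.5% ± 1.95 in NS, and Pfkfb4 a smaller one of 24.9% ± 2.42. Within same-numbered pairs of libraries, examined after the values were seen, the share of Hk1 was higher in WS in all 3 pairs, by 0.257, 0.273 and 0.300 percentage points, and that of Hk2 lower by as much. The share of Pfkfb4 was lower in WS in all 3 pairs, with WS minus NS at -0.718, -0.572 and -0.884 percentage points, and the other 15 shares moved in both directions. The order within the enolases depended on the length used, as did the lead of Phka1 over Phka2. With the longest transcript in place of all exons, Eno1 led Eno2 with 53.9% against 45.8% in NS. By that length Phka2 and Phka1 were level within their spread in NS, at 50.3% ± 1.70 and 49.7% ± 1.70. Phka1 was the higher in NS replicates 1 and 2 and Phka2 in NS replicate 3.

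**Figure D3:**
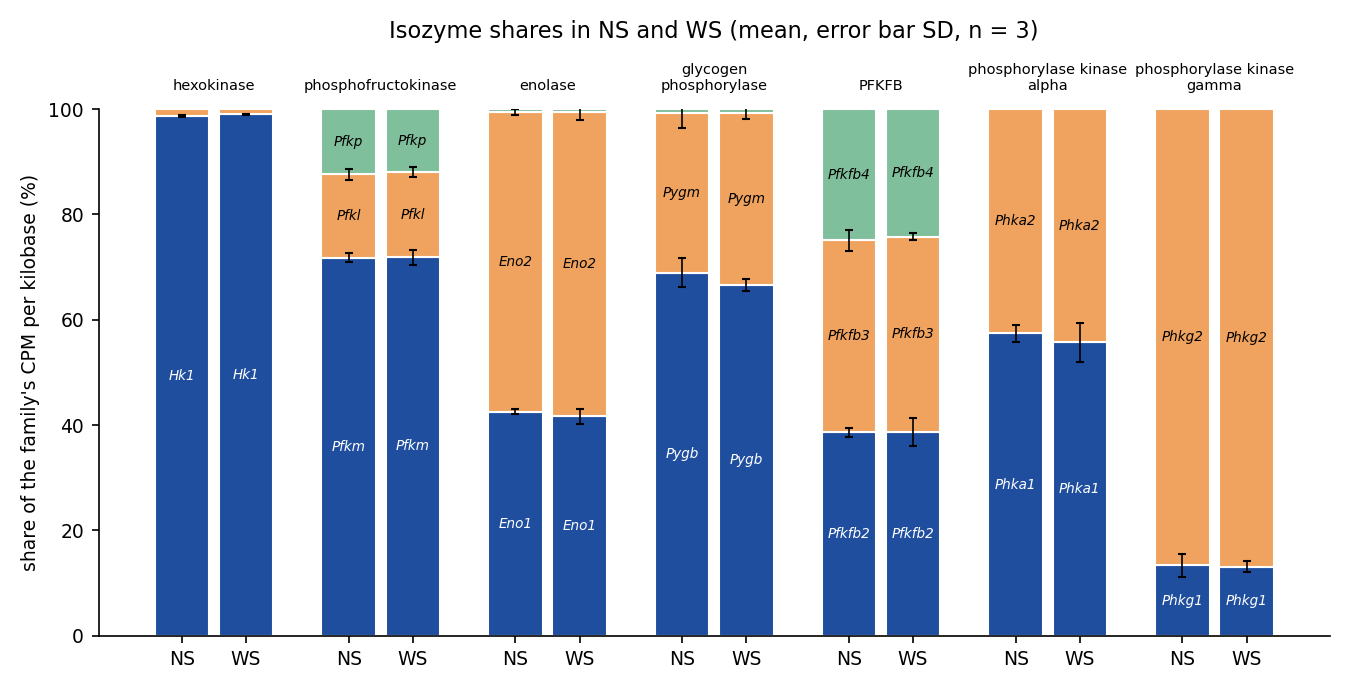
Share of each isozyme in the summed CPM per kilobase of its family (y axis, percent) in NS and WS, as the mean of 3 libraries with the SD as error bar. Hk1 and Phkg2 dominate their families, Pygb holds 69.0% of phosphorylase in NS and 66.6% in WS, and no share separates the groups.

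The glycolytic members differed among the WS libraries. In WS replicate 1, 11 of 20 were above all NS libraries and 4 below, against 32% and 30.7% of all tested genes. WS replicate 2 had 4 of 20 above and 5 below, against 22.1% and 22.3%. In WS replicate 3, 4 of 20 were above and 13 below, against 30.1% and 28.1%. Of the 20, 9 were both above NS in WS replicate 1 and below NS in WS replicate 3 (Hk1, Gpi1, Pfkm, Pfkl, Aldoa, Gapdh, Eno1, Eno2 and Pkm), against 13.2% of tested genes. These libraries also differed in abundant genes at large. Of the 1024 genes that averaged 200 CPM or more, 49.5% were above NS in WS replicate 1, 48.6% below NS in WS replicate 3, and 30.1% both, against 8, 11 and 8 of the 12 glycolytic members at that level. The median deviation from the NS mean, in log2 CPM, was 0.08 for all 20 glycolytic members, 0.10 for the 12 of at least 200 CPM and 0.05 for all genes of at least 200 CPM in WS replicate 1. In WS replicate 3 these medians were -0.11, -0.15 and -0.05.

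Of the glycogen members, 1 of 16 (Gys1) was above NS in WS replicate 1 and below NS in WS replicate 3, against 13.2% of tested genes. In WS replicate 1, 6 of 16 were above all NS libraries and 5 below, against 32% and 30.7% of all tested genes. WS replicate 2 had 4 above and 3 below, against 22.1% and 22.3%. In WS replicate 3, 8 of 16 were above (Pygm, Gbe1, Phka1, Phka2, Phkb, Ugp2, Gyg and Ppp1r3c) and 1 below (Gys1), against 30.1% and 28.1% of all tested genes. Their median deviation from the NS mean in log2 CPM was 0.01, -0.01 and 0.12 in WS replicates 1, 2 and 3. For the 10 astrocyte markers it was 0.15, -0.01 and 0.25 in the same libraries. Markers of other cells are given beside them, without a test. The medians were 0.10, 0.0019 and 0.17 for the 15 endothelial markers and 0.15, 0.05 and 0.11 for the 10 microglial markers. They were -0.04, 0.34 and 0.31 for the 10 oligodendrocyte markers, and -0.05, -0.0063 and -0.01 for the 10 neuronal markers. In NS replicates 1, 2 and 3 the oligodendrocyte medians themselves were -0.29, 0.17 and 0.12. Those of the astrocyte, endothelial, microglial and neuronal markers lay between -0.08 and 0.06 in NS. The astrocyte markers, all with reads, summed to 3715 to 4270 CPM in NS and 3899 to 4999 CPM in WS, with WS replicate 3 the highest of the 6 libraries. The sum in NS replicate 3 was the lowest and includes a low value of Gja1. The part of RNA from these cell types in the glycogen values was not tested. The glycolytic median minus the glycogen median was 0.07, 0.01 and -0.23 in WS replicates 1, 2 and 3, and between -0.02 and 0.03 in the NS libraries.

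**Figure D4:**
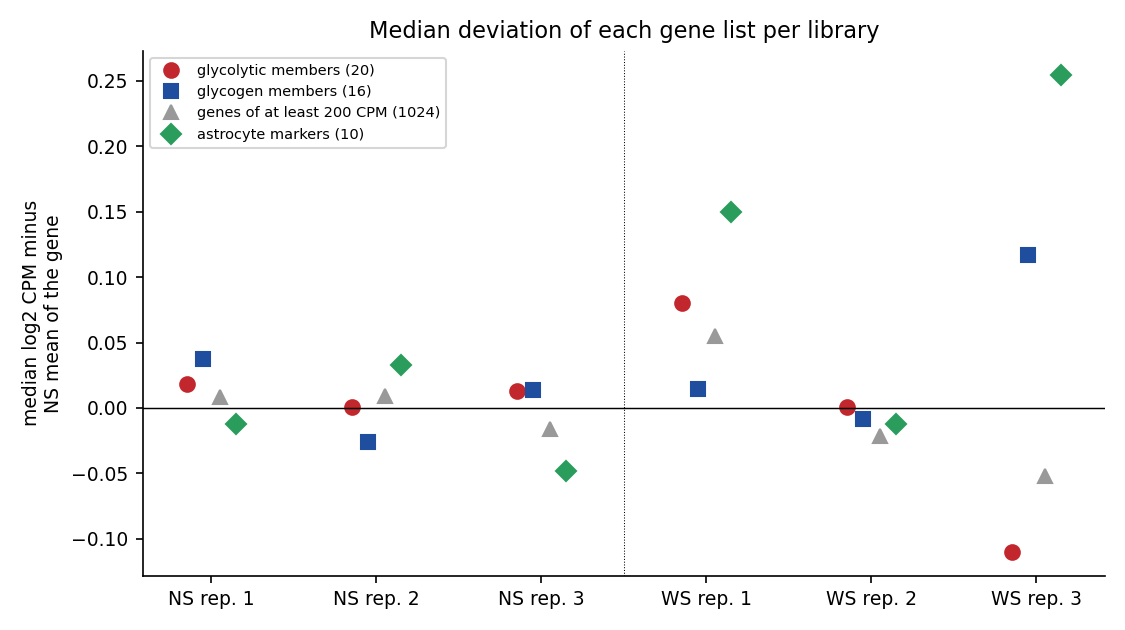
Median over each gene list of the log2 CPM in a library minus the gene's mean in NS (y axis), by library (x axis). In WS replicate 3 the glycolytic members lie at -0.11 and the glycogen members at 0.12, while in WS replicate 2 both are near 0.

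Over all 6 libraries, the median log2 fold change was -0.01 for the glycolytic members (8 higher, 12 lower, range -0.31 to 0.21) and 0.05 for the glycogen members (11 higher, 5 lower, range -0.11 to 0.24). That of all tested genes was 0.0074. Both medians moved with single libraries. The glycolytic median was 0.05 when WS replicate 3 was left out, -0.06 when WS replicate 1 was, and -0.04 when WS replicate 2 was. It was nearer 0 than with all libraries when any NS replicate was left out. For the glycogen members, leaving out WS replicate 3 gave a median of 0.02, leaving out NS replicate 2 one of 0.01, and leaving out NS replicate 1 one of 0.08. The summed counts of both groups of genes overlapped between NS and WS. The glycolytic members took 1.26%, 1.21% and 1.27% of all counts in NS and 1.31%, 1.25% and 1.13% in WS, and the glycogen members 0.0651%, 0.0609% and 0.0627% in NS and 0.0659%, 0.0617% and 0.0684% in WS.

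Other genes of the same pathways, 29 in a list drawn up by function, were examined in the same fit. Of these 20 were tested, with 9 higher and 11 lower, a median log2 fold change of -0.03, and 0 called by the adjusted p. Aldoc, the aldolase typical of astrocytes, had a log2 fold change of 0.13 (SE 0.09). Gsk3a and Gsk3b, kinases that inhibit glycogen synthase, had log2 fold changes of 0.07 (SE 0.11) and -0.05 (SE 0.08). The single gene at an unadjusted p under 0.05 was Pfkfb1, the liver form of Pfkfb, which was rare in cortex. Its counts were 10, 13 and 13 in NS and 7, 6 and 3 in WS, with all WS values below NS. Its log2 fold change was -1.18 (SE 0.42, unadjusted p = 0.0159 and adjusted p = 0.9998 in edgeR's test with Benjamini-Hochberg, unadjusted p = 0.0803 with DESeq2), and with so few counts its size is poorly known.

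Of the 36 members, 19 overlap a gene on the other strand and 7 a gene on their own strand in GENCODE (Pgm2 taken as the gene now of that symbol), and the handling of strand and of reads shared with processed pseudogenes, known for Gapdh among others, is not given in the sources used here. Reads from such neighbours could have been counted with the members.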

How the data were processed

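Per the methods, reads of rRNA or of low quality were discarded and the others aligned with HISAT2 by the authors (build mm10 in the submitters' processing notes). The counting tool is not given in the sources used here. The deposited table holds each gene's 6-library mean (an estimated count), its SD, and 1 score per library. The authors made this score, a z-score, by centring on that mean and dividing by that SD. It also holds the authors' fold changes and p-values, which were not used, nor was a second table of selected genes. The column taken as WS replicate 3 has an extra letter in its name and enters the authors' own WS mean.

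Counts were recovered as mean plus z-score times SD and rounded, so the count test foreseen for counts was applied to recovered ones. In the 13415 genes with a rounding uncertainty under 0.1 count, 91.0% of values came out whole within 0.1 count. Members were recovered to within 0.0119% of their mean, and counting error falls as counts rise. No pair of libraries was a duplicate. All genes were fitted with edgeR 4.0.16 (TMM, filterByExpr, quasi-likelihood test, Benjamini-Hochberg) in R 4.3.3, tested on simulated data, and calls needed an adjusted p below 0.05 with a log2 fold change beyond 1. The biological coefficient of variation was 10.1%. A legend of the study gives 3 male mice for this comparison, and its model takes the unstimulated side of the same brain as control, so the 6 libraries may come from 3 mice. The p-values of the main fit treat the 6 libraries as independent samples and set each difference against the spread among them.

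Same-numbered NS and WS libraries deviated alike from their groups, with correlations of 0.34, 0.23 and 0.12 over 13747 genes (genes are not independent), each the highest for its libraries. The pairing thus comes from the data, since the sources do not say which libraries share a mouse, and the fit with the replicate block is given beside the unblocked one where it changed a result. Alternatives were RLE and upper-quartile normalization, 2 other filters, DESeq2 1.42.0, each library left out, no fold limit, and another gene length. Positions and lengths are from GENCODE on GRCm38, sequences from RefSeq. Members and lists were chosen with earlier results of these data known. All members are named. Values in every library are given for members at an unadjusted p below 0.05, with groups that do not overlap, or with a library over 1.5 times from the median of the others, and for Hk1, Hk2, Pfkm, Pfkl, Pfkp, Pkm, Pfkfb3, Pygb, Pygm, Gys1 and Ppp1r3c.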

Additional observations from a re-analysis of the deposited data

How the results depend on the processing

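No member was called under any of the other normalizations, filters, tests, the block or the fits without a library, the lowest adjusted p among them being 0.884 (edgeR with Benjamini-Hochberg, without WS replicate 3), and the largest log2 fold change in size was -0.42 (Hk2, without WS replicate 1). The count of members at an unadjusted p under 0.05 was 1 with the replicate block (Pygm) and ranged from 0 to 1 with a library left out, reaching 1 without WS replicate 2, against 0 with all libraries. The replicate block changed no other call of a member. Of the 36 members, 12 kept their sign throughout, while 39 of the 216 values with a library left out changed sign, as did 1 of 216 values under the other alternatives, which was Gpi1 at 0.0013 with upper-quartile normalization. Where leaving out single libraries made a log2 fold change cross 0, the values ranged from -0.042 to 0.098 for Hk1, -0.0505 to 0.0601 for Gpi1, -0.077 to 0.045 for Pfkm, -0.021 to 0.11 for Pfkl, -0.11 to 0.044 for Aldoa, -0.10 to 0.023 for Tpi1, -0.092 to 0.063 for Gapdh, -0.062 to 0.061 for Eno1, -0.044 to 0.099 for Eno2, -0.037 to 0.076 for Pkm, -0.053 to 0.21 for Adpgk, -0.17 to 0.087 for Pfkfb2 and -0.087 to 0.055 for Pfkfb3. Among the glycogen members the ranges were -0.0022 to 0.14 for Pygb, -0.11 to 0.066 for Gys1, -0.067 to 0.12 for Gbe1, -0.0095 to 0.11 for Pgm2, -0.20 to 0.091 for Phka1, -0.0696 to 0.13 for Phkb, -0.12 to 0.037 for Phkg1, -0.0702 to 0.048 for Phkg2, -0.0082 to 0.10 for Ugp2, -0.22 to 0.014 for Ppp1r3d and -0.013 to 0.095 for Ppp1r3e. The members that kept their sign ranged from -0.42 to -0.20 for Hk2, -0.11 to -0.026 for Pfkp, -0.13 to -0.053 for Pgk1, -0.11 to -0.0068 for Pgam1, 0.049 to 0.36 for Eno3, 0.079 to 0.17 for Bpgm, -0.17 to -0.018 for Pfkfb4, 0.12 to 0.34 for Pygm, 0.038 to 0.27 for Pygl, 0.0035 to 0.12 for Phka2, 0.039 to 0.15 for Gyg and 0.0087 to 0.14 for Ppp1r3c. With the longest transcript as length, the shares over all libraries were 99.4% for Hk1, 63.7% for Pfkm, 46.2% for Eno2, 48.8% for Phka1 and 83.3% for Phkg2. With 3 libraries per group, small differences within a member's confidence interval may have been missed.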
